A study of Homo sapiens with 16 samples.

Results

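Peaks of 2 immunoprecipitations with the G-quadruplex antibody 1H6 were compared: conventional G4-ChIP, on fixed and sonicated chromatin, and G4 DNA-IPnat, on purified genomic DNA that was not denatured. The G4-ChIP list holds 1455 peaks and the G4 DNA-IPnat list 226, together 1681 of the 40118 peaks in the 9 lists of the series. A G4-ChIP peak was called shared if it overlapped a G4 DNA-IPnat peak by at least 1 bp and chromatin-only if it did not. By this rule 157 G4-ChIP peaks (10.8%, exact 95% interval 9.24 to 12.5) were shared and 1298 were chromatin-only, of which 684 lay on chromosome 13 and 614 on all other chromosomes together.

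All samples are HEK293T, a human embryonic kidney cell line. The labels name no shRNA for the G4-ChIP cells and give untransduced cells for the purified DNA. Both lists come from PCR-amplified libraries sequenced on a MinION, and MACS2 called peaks with its default bandwidth against matched inputs that were not analysed here. Each method is 1 library, pooled from several replicates, so that no value below has a replicate error and no difference between the 2 methods has a test. The intervals given for shares (exact Clopper-Pearson) and medians (from order statistics) are at the 95% level and cover the counting of peaks only. Beside these 2 lists, 7 others serve as further readouts: G4 DNA-IPdenat, from heat-denatured purified DNA, and 6 lists of AbC G4-ChIP, in which the antibody was bound to permeabilised cells before shearing. In these, CT stands for a non-targeting shRNA and KD for an shRNA against CGGBP1, nuc marks the Ion Torrent pair, and ut and tr mark the MinION pairs in which control DNA was added to the lysate or transfected into the cells. All 7 were called with a widened bandwidth. The cell type cannot be checked against marker genes in peak lists.

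A G-quadruplex is a 4-stranded DNA fold in which runs of guanines stack as planar tetrads held by potassium. It can form in purified single-stranded or supercoiled DNA, and in cells it competes with the double helix, nucleosomes and helicases that unwind it. Telomere repeats, ribosomal DNA and many promoters carry the runs of G (or C, on the opposite strand) from which it is built.

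The reference sequence (hg38, plus strand) shows what kinds of DNA the lists share and do not share. The first 4 lines give, for the peak with the highest fold of each class, the 200 bases richest in GGG and CCC triplets, which are in capitals. For the class on other chromosomes the top peak overlaps an exon of a coding gene, and the next one is shown. They are chr13:72148296-72148495 (chromatin-only, chromosome 13), chr5:49666833-49667032 (chromatin-only, other chromosomes), chr2:32916352-32916551 (shared) and chr7:906410-906609 (G4 DNA-IPnat only).
chromatin-only, chromosome 13: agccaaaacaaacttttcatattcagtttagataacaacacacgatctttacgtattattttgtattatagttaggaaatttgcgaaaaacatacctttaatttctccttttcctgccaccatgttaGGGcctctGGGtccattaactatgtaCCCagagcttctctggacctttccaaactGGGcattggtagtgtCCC
chromatin-only, other chromosomes: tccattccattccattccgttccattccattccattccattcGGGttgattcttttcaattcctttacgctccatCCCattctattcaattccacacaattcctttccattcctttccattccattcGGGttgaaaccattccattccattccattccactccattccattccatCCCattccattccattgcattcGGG
shared: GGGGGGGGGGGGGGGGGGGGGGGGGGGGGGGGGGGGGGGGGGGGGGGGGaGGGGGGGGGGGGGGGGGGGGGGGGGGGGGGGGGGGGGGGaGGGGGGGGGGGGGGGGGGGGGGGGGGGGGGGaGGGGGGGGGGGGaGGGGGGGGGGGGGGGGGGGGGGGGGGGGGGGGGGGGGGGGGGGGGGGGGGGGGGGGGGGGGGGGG
G4 DNA-IPnat only: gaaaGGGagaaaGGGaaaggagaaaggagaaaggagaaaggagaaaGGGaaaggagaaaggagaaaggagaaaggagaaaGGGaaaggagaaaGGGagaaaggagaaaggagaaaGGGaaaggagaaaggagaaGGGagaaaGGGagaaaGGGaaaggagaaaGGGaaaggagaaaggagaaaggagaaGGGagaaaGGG
The chromosome 13 window holds 5 such triplets in a mixed sequence. The chromosome 5 window is made of a repeated pentamer, ATTCC, with 5 triplets. The shared window, in an intron of LINC00486, is almost all G, and the G4 DNA-IPnat window is a purine repeat with 12 triplets.

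A second set shows a canonical signature, defined as at least 4 runs of GGG (or of CCC) with loops of 1 to 7 bases, with the runs in capitals, and the satellite type of the shared class, with the pentamer ATTCC or its complement GGAAT in capitals. The signatures are from the highest chromatin-only peak that holds one on chromosome 13 (chr13:79380767-79380790, in RBM26) and from the chromatin-only peak over the start of KLHL1 (chr13:70108532-70108550), a choice made after its values were seen. The satellite is the central 120 bases of the highest shared pentamer peak (chr1:125179889-125180008), likewise chosen afterwards.
signature in RBM26: CCCtatctCCCtaccaCCCttCCC
signature upstream of KLHL1: GGGaGGGaGGGaGGGaGGG
shared satellite on chromosome 1: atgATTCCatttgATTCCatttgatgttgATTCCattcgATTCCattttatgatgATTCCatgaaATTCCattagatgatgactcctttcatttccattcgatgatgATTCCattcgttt

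Chromatin-only peaks lay on every chromosome listed, but at very different densities. Chromosome 13 held 5.98 of them per Mb and the other chromosomes 0.211 per Mb together, from 0.0332 per Mb on chromosome 16 to 0.739 per Mb on chromosome 1. G4 DNA-IPnat had 1 peak on chromosome 13, in the pseudogene FAM230C, and it was also the 1 shared G4-ChIP peak there, with a G4-ChIP fold of 11.9. On the other chromosomes 156 G4-ChIP peaks were shared, which is 20.3% (17.5 to 23.3) of the 770 there, against 0.146% (0.00370 to 0.811) of the 685 on chromosome 13. Counted from the other side, 167 of the 226 G4 DNA-IPnat peaks (73.9%, 67.7 to 79.5) overlapped a G4-ChIP peak. No peak lay close to the limit of 1 bp: the shared peak with the least overlap had 119 bp in common, on chromosome 5, and the nearest chromatin-only peak lay 3782 bp from a G4 DNA-IPnat peak, on chromosome 9. Stricter minima moved more peaks, with 130 shared at 50% of the peak's length and 111 at 70%. Native signal below the peak threshold was not analysed. Within 10 kb of a G4 DNA-IPnat peak lay 13 of the 614 chromatin-only peaks on other chromosomes and 0 of the 684 on chromosome 13.

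**Figure D1:**
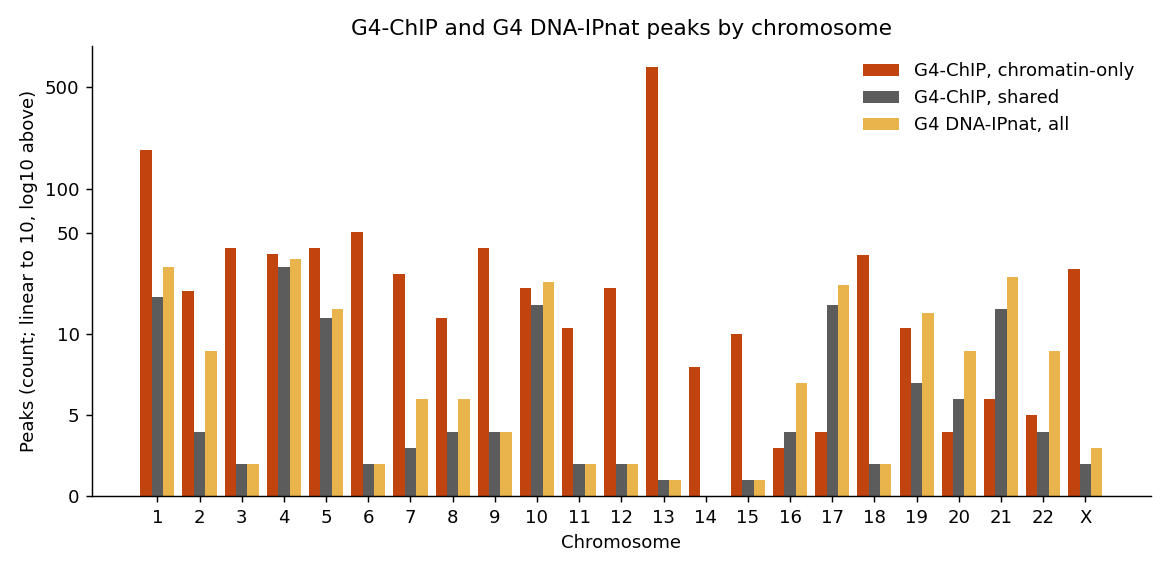
Number of peaks on each chromosome (y axis, count, linear to 10 and log10 above) for chromatin-only G4-ChIP peaks, shared G4-ChIP peaks and all G4 DNA-IPnat peaks. Chromosome 13 has 684 chromatin-only peaks and 1 of each other kind, whereas chromosomes 16, 17, 20 and 21 have fewer chromatin-only than shared peaks.

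The chromatin-only peaks of chromosome 13 formed 1 block. Neither input signal nor copy number along the chromosome was analysed here. All but 1 of the 684 lay between 61741998 and 94714052, a stretch of 33.0 Mb that makes up 28.8% of the chromosome, at 20.7 peaks per Mb and covering 6.83% of its bases. The remaining peak (chr13:37771922-37772229, fold 4.99) lay 24.0 Mb before it, in TRPC4, which encodes a cation channel. Within the stretch the peaks thinned out distally. From 62 to 68 Mb each Mb held 62 to 81 peaks, the next held 39 and the one from 69 to 70 Mb held 15. The Mb after that held 24, and beyond 72 Mb no Mb held more than 15, with 0 from 73 to 74 Mb. Splitting at 70 Mb, a limit set after the positions were seen, gave a proximal part with 494 peaks and a distal part with 189. The 5 longest chromatin-only peaks, 31088 to 70455 bp long with folds of 4.83 to 5.01, lay near each other at the proximal end of the block, between 61766842 and 62113532. All 5 overlapped peaks of all 6 AbC lists, and 3 of them peaks of G4 DNA-IPdenat.

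On other chromosomes the 614 chromatin-only peaks were scattered. Of the 10-Mb windows, 173 held at least 1 of them and 72 held exactly 1. The fullest were 70 to 80 Mb of chromosome 1 with 23 peaks, 230 to 240 Mb of chromosome 1 with 21, 70 to 80 Mb of chromosome 9 with 20, 120 to 130 Mb of chromosome 6 with 19 and 30 to 40 Mb of chromosome 18 with 18. Together these 5 held 101 peaks, 16.4% of the class, so that no second block like that of chromosome 13 was seen at this scale.

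Fold enrichment, as MACS2 gives it and possibly without correction for local input, was low in both chromatin-only classes. The median was 4.59 (4.55 to 4.62) on chromosome 13 and 4.50 (4.45 to 4.56) on other chromosomes, against 5.63 (5.38 to 5.91) for shared peaks. The highest fold was 6.12 on chromosome 13, 11.9 on other chromosomes and 41.1 among shared peaks. The lowest fold of the list, 4.45, was the value of 241 chromosome 13 peaks (35.2%, 31.7 to 38.9), 281 peaks on other chromosomes (45.8%, 41.8 to 49.8) and 5 shared peaks (3.18%, 1.04 to 7.28). A -log10 q of at least 4 was reached by 54 chromatin-only peaks on chromosome 13 (7.89%), 77 on other chromosomes (12.5%) and 111 shared peaks (70.7%). Both chromatin-only classes thus sat near the lowest fold that was listed, and their medians lay below that of the shared peaks.

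Length separated the chromatin-only classes from each other. On chromosome 13 the median was 2372 bp (2151 to 2540) and on other chromosomes 1119 bp (992 to 1204). Peaks over 5 kb made up 105 of 684 on chromosome 13 (15.4%, 12.7 to 18.3) and 7 of 614 elsewhere (1.14%, 0.460 to 2.33). At the other end, the shortest length of the list, 308 bp, was that of 38 chromosome 13 peaks and 115 peaks elsewhere. Shared peaks had a median of 1730 bp, and 28 of 157 (17.8%) were over 5 kb. In bases, the chromatin-only peaks covered 2251826 bp on chromosome 13 and 862831 bp elsewhere, and the shared peaks 600893 bp.

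**Figure D2:**
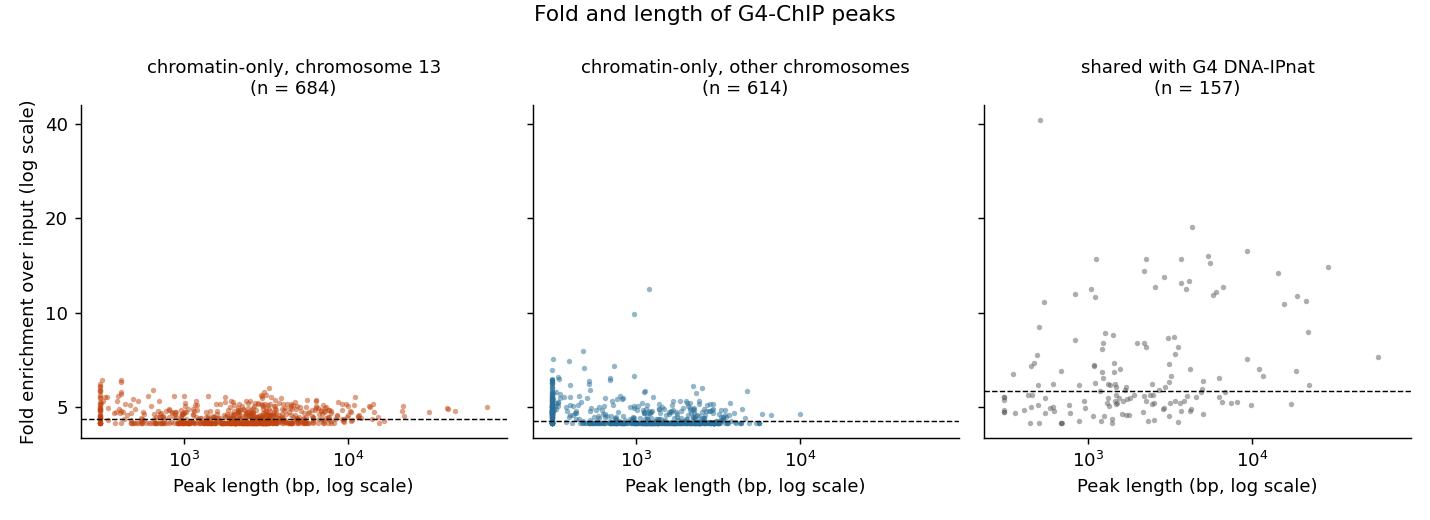
Fold enrichment as MACS2 gives it (y axis, log scale) against length in bp (x axis, log scale) of each G4-ChIP peak. The 3 panels are by class, with the median fold as a dashed line. Chromosome 13 peaks spread to 70455 bp at folds of at most 6.12, peaks on other chromosomes stay under 10 kb, and shared peaks reach a fold of 41.1.

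The 5 chromatin-only peaks with the highest fold on chromosome 13 were short and mostly between genes. They lay at 72148185-72148500 (fold 6.12), 64082204-64082619 (6.10), 70069646-70070056 (6.02, in an intron of KLHL1), 67507250-67507557 (5.91) and 84505640-84505947 (5.82), and were 308 to 416 bp long. The first and the last were in no other list. The second had peaks of fold 3.25 in CTut and 3.82 in KDut, the third of 3.71 in KDtr, and the fourth of 4.45 in CTnuc, 3.78 in KDut and 3.74 in CTtr.

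Off chromosome 13 the highest chromatin-only peak (chr11:5224912-5226118) covered the 3′ end of HBB, the beta-globin gene, at fold 11.9. It had a fold of 4.46 in CTut, 5.61 in KDut and 8.64 in KDtr, and no peak in either purified-DNA list, either nuc list or CTtr. The next 4 lay outside annotated genes. The pentamer satellite at chr5:49666365-49667335 had a fold of 9.88 in G4-ChIP, 10.6 in CTnuc and 13.4 in KDnuc and no peak in the 4 MinION AbC lists or the purified-DNA lists. The peaks at chr7:60607572-60608049 (fold 7.54), chr1:143185130-143185441 (7.13) and chr5:47498406-47498799 (7.00) were each found in G4 DNA-IPdenat, at folds of 17.0, 16.0 and 9.50, and in all 4 MinION AbC lists.

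The bases under chromatin-only peaks were AT-rich and poor in G runs. Their median GC content was 33.2% (33.0 to 33.5) on chromosome 13 and 36.7% (36.3 to 37.3) on other chromosomes, against 39.1% (38.8 to 39.8) for shared peaks. Under 40% GC were 650 of 684 chromosome 13 peaks, 492 of 614 elsewhere (80.1%) and 98 of 157 shared peaks (62.4%). The chromosome 13 stretch itself has 35.7% GC, and the peaks in pooled bases 33.6%. The other chromosomes have 41.0% GC and the chromatin-only peaks on them 37.3%. Both classes were thus lower in GC than these means, and flanking DNA was not measured.

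GGG and CCC triplets, counted on the plus strand with overlaps, had a median of 13.1 per kb (12.7 to 13.5) in chromatin-only peaks of chromosome 13 and 14.1 (13.4 to 15.0) in those of other chromosomes. Pooled over bases, the densities were 14.3 and 17.6 per kb, against 17.2 per kb in the whole stretch and 26.1 per kb over the other chromosomes. The shared class had a lower median of 7.97 per kb (6.51 to 9.06) but a pooled density of 15.7 per kb, above that of the chromosome 13 class, with an upper tail that reached 628.2 per kb at LINC00486. No triplet at all was found in 3 chromosome 13 peaks, 8 chromatin-only peaks elsewhere and 5 shared peaks.

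**Figure D3:**
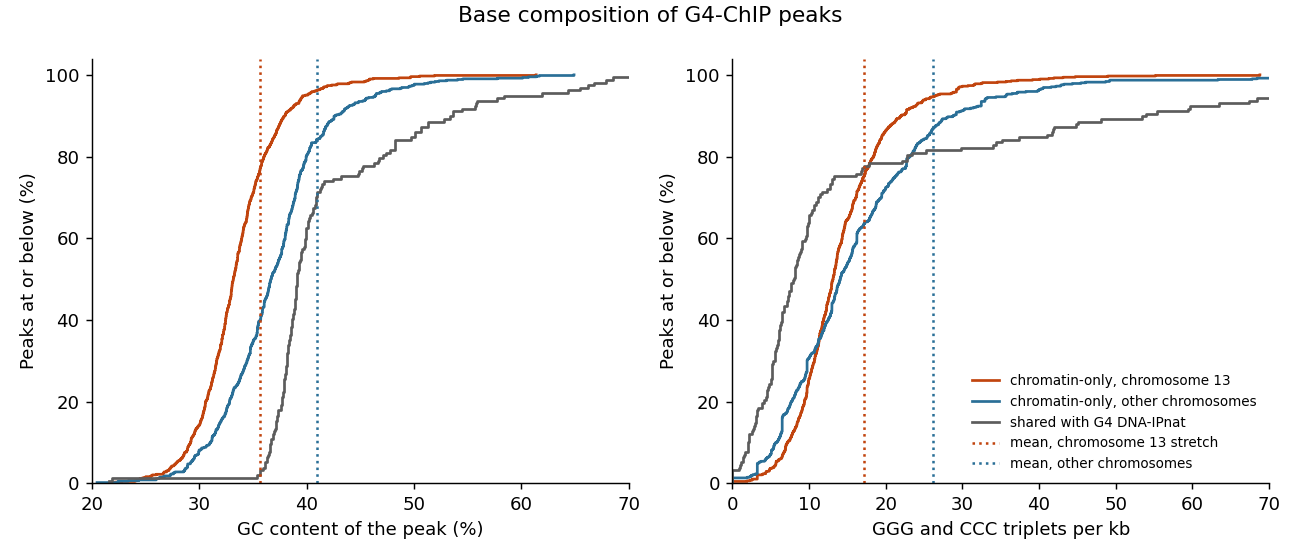
Cumulative share of peaks (y axis, %) by GC content in % (left) and by GGG and CCC triplets per kb (right) for the 3 classes of G4-ChIP peaks, with dotted lines at the mean of the chromosome 13 stretch and of the other chromosomes. Most chromatin-only peaks lie left of the dotted line of their own background in both panels, and the shared class has a long right tail, of which a few peaks lie beyond the edge.

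The canonical signature was found in 61 chromatin-only peaks on chromosome 13 (8.92%, 6.89 to 11.3), 43 on other chromosomes (7.00%, 5.11 to 9.32) and 23 shared peaks (14.6%, 9.52 to 21.2). Longer peaks have more room for it, so the central 1 kb of peaks of at least that length was set against all 1-kb tiles of the reference. The signature was in 17 of 528 such centres on chromosome 13 (3.22%, 1.89 to 5.11), against 4.20% of the tiles of the stretch, and in 12 of 331 centres elsewhere (3.63%, 1.89 to 6.25), against 9.59% of the tiles of the other chromosomes. Among shared peaks it was in 13 of 117 centres (11.1%, 6.05 to 18.3). On other chromosomes the interval for chromatin-only centres thus ended below the share of tiles, while on chromosome 13 it included it.

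Tandem repeats, defined by self-match 1 alpha-satellite unit further on or by the pentamer, differed in share between the classes. They were 0 of 684 chromatin-only peaks on chromosome 13 (exact upper limit 0.538%), 50 of 614 on other chromosomes (8.14%, 6.10 to 10.6), 82 of 157 shared peaks (52.2%, 44.1 to 60.3) and 35 of the 59 peaks found in G4 DNA-IPnat only (59.3%, 45.7 to 71.9). The 50 chromatin-only tandem repeats were short, with a median of 551.5 bp, and their median fold was 4.84 (4.68 to 5.08). The rule is not a satellite annotation. It counted the G run at LINC00486 (self-match 92.6%) and left out the peak at chr7:60607572-60608049 (45.9%). Peaks outside the rule can therefore still be satellite DNA, here and where tandem repeats are left out. CpG dinucleotides, as observed over the number base content gives, had a median of 0.171 on chromosome 13, 0.197 on other chromosomes and 0.454 in shared peaks.

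An annotated gene of any type (GENCODE version 44) overlapped 246 chromatin-only peaks on chromosome 13 (36.0%, 32.4 to 39.7), 336 on other chromosomes (54.7%, 50.7 to 58.7) and 24 shared peaks (15.3%, 10.0 to 21.9). For protein-coding genes the counts were 102 (14.9%), 234 (38.1%) and 4 (2.55%), and for coding-gene exons 10 (1.46%), 59 (9.61%) and 1 (0.637%). For genes of any type, the interval of chromatin-only peaks outside chromosome 13 thus lay above those of the other classes. This did not hold among peaks with a -log10 q of at least 4, of which 33.8% (23.4 to 45.4) were in a gene on other chromosomes and 35.2% (22.7 to 49.4) on chromosome 13. The share of the reference that lies in genes was not measured. Whether any of these shares differs from its background was therefore not tested. Over all 19962 protein-coding genes, 233 (1.17%) had a chromatin-only peak in their body, and in the chromosome 13 stretch 15 of 39 did.

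On chromosome 13, 16 protein-coding genes held chromatin-only peaks, 15 of them in the stretch. PCDH9, a protocadherin of neuronal cell adhesion (66302834-67230445), held 61, which is 65.8 per Mb of gene at a median fold of 4.60. The Mb windows that the gene spans, 66 to 67 and 67 to 68, held 62 and 70 peaks. Their median folds were 4.58 and 4.64, and their counts include the peaks of the gene itself. The windows on either side held 69 peaks (65 to 66 Mb) and 39 peaks (68 to 69 Mb). GPC5, a cell-surface glypican, held 12 in 1475 kb and KLHL1, a neuronal kelch-family protein, held 11 in 407.9 kb. RBM26, which binds RNA, and DACH1, a transcription factor, held 3 each, and SCEL, of the cornified envelope, and MYCBP2, a ubiquitin ligase, held 2 each. SLITRK6, a transmembrane protein of neurite growth, held 1, as did the other 8. Of the 61 peaks in PCDH9, 5 touched an exon.

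The same gene bodies held different numbers of peaks in the other lists. PCDH9 had no native DNA peak, 7 peaks in G4 DNA-IPdenat, 147 in CTnuc, 197 in KDnuc, 79 in CTut, 43 in KDut, 65 in CTtr and 103 in KDtr. GPC5 had 0 in G4 DNA-IPnat and in CTnuc, 14 in G4 DNA-IPdenat, 15 in KDnuc, 18 in KDut and 1 to 3 in the remaining AbC lists. KLHL1 had no native DNA peak, 6 peaks in G4 DNA-IPdenat and 1 to 17 in the AbC lists. Thus all 3 genes were without a native DNA peak, and PCDH9 alone of them had at least 43 peaks in every AbC list. PCDH9 lies in the proximal part of the block, GPC5 in the distal part and KLHL1 across the 70 Mb limit.

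On chromosome 13, 60 non-coding genes held chromatin-only peaks. The non-coding genes of the chromosome were not counted, so this number has no share and cannot be set against the coding genes. LINC00355 held 16 peaks, the lncRNA ENSG00000287876 held 15, LINC00376 held 14, LINC00448 held 11 and LINC00395 held 8, at 71.2 to 113.7 peaks per Mb and median folds of 4.50 to 4.80. All 5 lie in the proximal part, between 62 and 68 Mb, where each Mb held 62 to 81 peaks.

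On other chromosomes 217 protein-coding genes held chromatin-only peaks, 193 of them exactly 1. NEGR1, a neuronal adhesion protein, held 4, and DNAH14, a dynein heavy chain, CHRM3, a muscarinic receptor, and LRRC7, a postsynaptic scaffold protein, held 3 each, all on chromosome 1. CCDC200, TLE4, a co-repressor, and COL4A5, a chain of type IV collagen, held 2 each. None of these genes had a G4 DNA-IPnat peak. NEGR1 and LRRC7 had none in any AbC list and 4 and 8 in G4 DNA-IPdenat, whereas TLE4 had 11 to 42 in every AbC list.

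In a list of 27 neuronal adhesion and synapse genes, 6 held a chromatin-only peak in their body, among them PCDH9, GPC5 and SLITRK6 on chromosome 13, and CNTNAP2 (2 peaks) and NLGN1 (1 peak, fold 4.84) elsewhere. The share over all coding genes was 1.17%, but the genes of this list have a median length of 1118 kb against 27.5 kb over all. The list was drawn up with earlier results of these data known. PCDH8, PCDH17, PCDH20, SLITRK1, SLITRK5 and GPC6, also on chromosome 13, held none. Of 12 genes known for a promoter quadruplex, among them MYC, KIT, BCL2 and VEGFA, 0 had a G4-ChIP or a G4 DNA-IPnat peak in the body or within 1 kb of a start site. Over all 19962 coding genes, 237 had a G4-ChIP peak in the body and 6 a G4 DNA-IPnat peak. Near a start site 29 and 3 did. With shares this low, 0 of 12 does not set the list apart.

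A start site of a coding gene lay within 1 kb of 4 chromatin-only peaks on chromosome 13 (0.585%), 21 on other chromosomes (3.42%), 1 shared peak and 2 G4 DNA-IPnat only peaks. Over all coding genes, 28 (0.140%) had a chromatin-only peak so placed. On chromosome 13 the genes were KLHL1 (fold 4.50), MYCBP2, SLITRK6 and SOX21 (4.45 each, the lowest of the list). The peaks at KLHL1 and SOX21, a transcription factor, held a signature, and those at MYCBP2 and SLITRK6 did not. The KLHL1 signature shown above starts 39 bp and ends 57 bp upstream of the annotated start of the gene, which is on the minus strand. The SOX21 peak had 61.4% GC and 68.8 triplets per kb, the highest of its class in both. It was in no other list, nor was that at SLITRK6, whereas the KLHL1 peak was found in CTnuc (fold 4.94) and KDtr (3.85).

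Among the 21 elsewhere, those with a high fold after HBB included YBX3, a cold-shock protein (5.26), PRRC2C (5.15), COL4A5 (5.06) and H3-3A, which encodes histone H3.3 (4.90). PLSCR4 (4.84), a peak over TAF11L4, TAF11L5 and TAF11L6 (4.71), NCOA7 (4.60) and CAPZA1 (4.45) were also among the first 10. The peak over the TAF11L genes, a multigene family whose copies can share reads, was found in all 6 AbC lists, at folds of 3.86 to 6.41. That at H3-3A was found in KDtr alone (3.73), and those at YBX3, PRRC2C, COL4A5, PLSCR4, NCOA7 and CAPZA1 in no other list.

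The 7 other lists separated the classes further. Of all G4-ChIP peaks, 21.6% overlapped G4 DNA-IPdenat, as did 47 of 684 chromatin-only peaks on chromosome 13 (6.87%, 5.09 to 9.03), 123 of 614 elsewhere (16.9 to 23.4%) and 145 of 157 shared peaks (92.4%, 87.0 to 96.0). Denaturation of the DNA thus gave a peak at few of the chromosome 13 regions. On other chromosomes, 41 of the 50 tandem repeats overlapped G4 DNA-IPdenat (82.0%), against 82 of the 564 remaining peaks (14.5%).

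In AbC G4-ChIP, CTut was overlapped by 46.5% of all G4-ChIP peaks, 54.1% of the chromosome 13 class, 24.4% of the class elsewhere and 99.4% of the shared class. For KDut the shares were 52.6% of all, then 67.1%, 24.3% and 100%, for CTtr 50.2% of all, then 63.2%, 23.1% and 99.4%, and for KDtr 46.0% of all, then 55.0%, 22.3% and 99.4%. For CTnuc they were 24.3% of all, then 24.4%, 14.5% and 61.8%, and for KDnuc 34.6% of all, then 42.5%, 17.4% and 66.9%. In every AbC list the order was the same, shared above chromosome 13 above the rest.

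Over the 4 MinION AbC lists, 544 of all 1455 G4-ChIP peaks (37.4%) were in all 4 and 619 (42.5%) in none. On chromosome 13, 271 chromatin-only peaks (39.6%, 35.9 to 43.4) were in all 4 and 172 (25.1%, 21.9 to 28.6) in none. On other chromosomes 119 (19.4%, 16.3 to 22.7) were in all 4 and 447 (72.8%, 69.1 to 76.3) in none. In none of the other 8 lists were 585 of all G4-ChIP peaks (40.2%), 161 peaks on chromosome 13 (23.5%) and 424 elsewhere (69.1%). Peaks at the lowest fold recurred less: on chromosome 13, KDut overlapped 54.8% of them (48.3 to 61.2) and 73.8% of those above it (69.5 to 77.9), and elsewhere 14.6% (10.7 to 19.3) and 32.4% (27.4 to 37.8).

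The proximal and the distal part of the chromosome 13 block differed in recurrence. Of the 494 proximal peaks, KDut overlapped 88.3% (85.1 to 91.0), CTtr 85.4% (82.0 to 88.4), KDtr 74.3% (70.2 to 78.1), CTut 73.5% (69.4 to 77.3), KDnuc 57.7% (53.2 to 62.1) and CTnuc 32.8% (28.7 to 37.1). Of the 189 distal peaks, KDut overlapped 12.2% (7.87 to 17.7), CTtr 5.29%, KDtr 4.76%, CTut 3.70%, KDnuc 3.17% and CTnuc 2.65%. Proximal peaks were longer, with a median of 2629.5 bp against 1704 bp, and higher in fold, at 4.62 against 4.45, so length and fold moved with the recurrence and their part in it was not tested. GC content (33.1% and 33.3%) and triplets per kb (13.0 and 13.4) were alike in both parts, and G4 DNA-IPdenat overlapped 8.30% and 3.17%. Every AbC list thus overlapped a larger share of the peaks before 70 Mb than of those beyond it. The density of the AbC lists themselves in each part was not measured, so it is not separated from these shares.

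**Figure D4:**
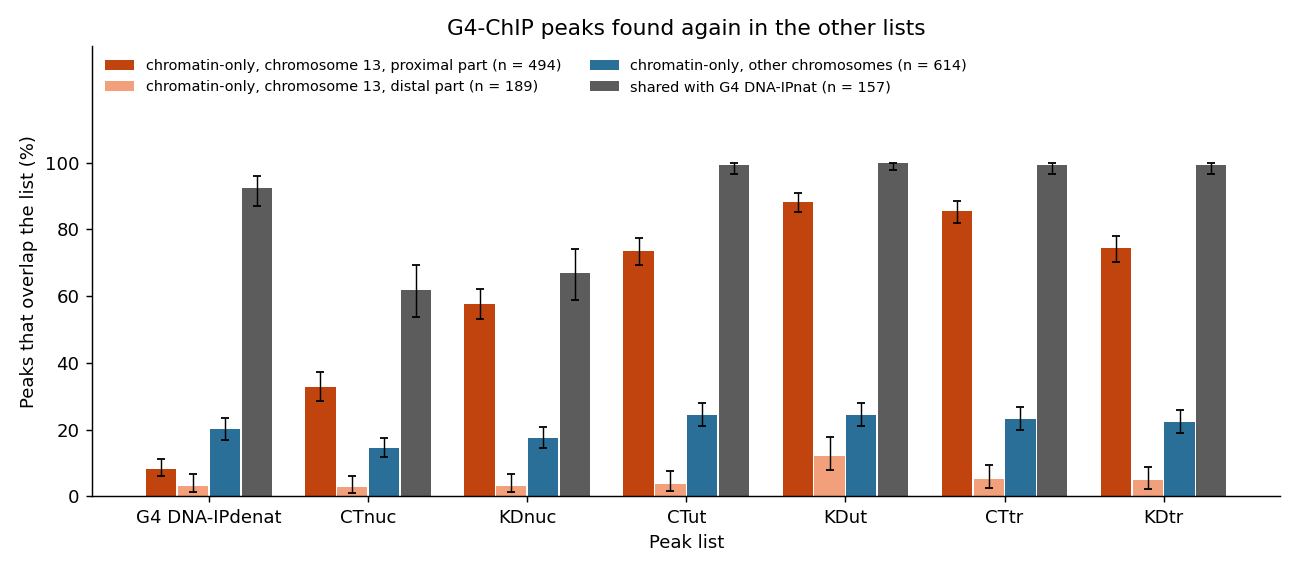
Share of G4-ChIP peaks (y axis, %, with exact 95% intervals) that overlap each of 7 other lists (x axis) for the proximal and distal parts of the chromosome 13 block, chromatin-only peaks on other chromosomes and shared peaks. Proximal peaks recur in 73.5% to 88.3% in the MinION AbC lists and distal ones in at most 12.2%, while G4 DNA-IPdenat is overlapped by 92.4% of the shared class and 8.30% of the proximal peaks.

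Longer peaks meet other lists more easily, so bases were counted as well. CTut covered 50.7% of the bases of the chromatin-only peaks in the chromosome 13 stretch and 9.10% of the bases between them. The same pair was 70.2% and 15.5% for KDut, 61.6% and 11.2% for CTtr, 53.3% and 8.53% for KDtr, 28.1% and 5.24% for KDnuc and 18.3% and 2.07% for CTnuc. For G4 DNA-IPdenat it was 3.20% and 2.50%, and G4 DNA-IPnat had 0 peaks in the stretch. Over the whole stretch, each AbC list thus covered a larger share of the bases under the G4-ChIP peaks than between them. The denatured-DNA list had nearly the same cover under and between them. Most of these peaks lie in the proximal part, where overlap with the AbC lists was also higher. Cover was not computed apart for the proximal and distal parts, so cover under the peaks was not separated from position in the stretch.

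Where both methods had a peak, the median ratio of their folds was close to 1. Both lists begin at nearly the same fold, 4.45 in G4-ChIP and 4.47 in G4 DNA-IPnat, which limits the ratio among low peaks. The ratio is therefore no measure of equal enrichment. The 157 shared G4-ChIP peaks and their 167 G4 DNA-IPnat partners formed 177 overlapping pairs, 99 of them tandem repeats. The G4-ChIP fold was higher in 96 pairs (54.2%), and the median ratio of G4-ChIP to G4 DNA-IPnat fold was 1.03, with quartiles of 0.887 and 1.23. Across the pairs, which share peaks and are not independent, Spearman's rho was 0.497 and Pearson's r of log2 fold 0.594, or 0.540 without the highest pair. The methods shared 68.1% of the bases of the G4-ChIP members and 68.5% of those of the G4 DNA-IPnat members. The highest pair, at LINC00486, had a fold of 41.1 in G4-ChIP and 13.3 in G4 DNA-IPnat, in a reference stretch of which 29.5% is unknown bases. The satellite at chr1:125175313-125184584 had 15.7 and 6.54, and 25.6 and 29.3 in CTnuc and KDnuc.

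**Figure D5:**
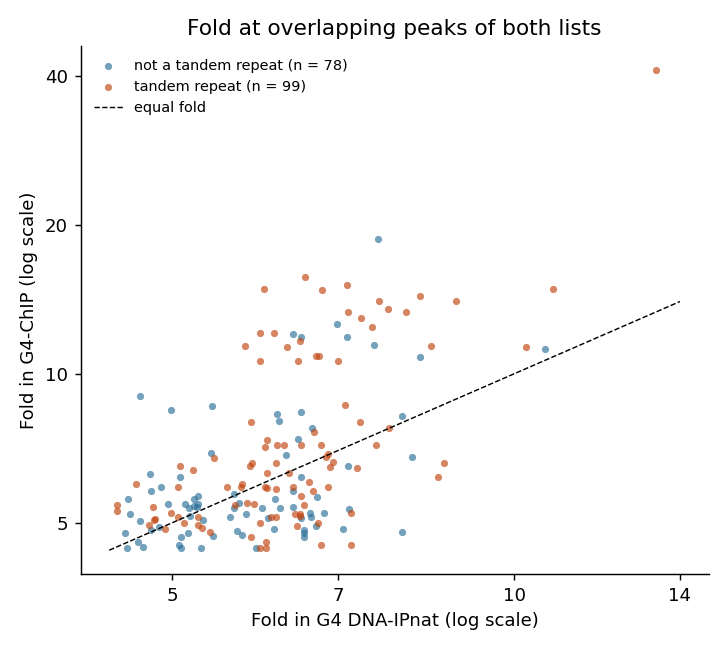
Fold in G4-ChIP (y axis, log scale) against fold in G4 DNA-IPnat (x axis, log scale) for the 177 overlapping pairs, coloured by tandem repeat, with a dashed line of equal fold. Pairs scatter on both sides of the line, 96 above it, and a group above a fold of 10 in G4-ChIP lies mostly between 5 and 10 in G4 DNA-IPnat.

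The 59 peaks of G4 DNA-IPnat without a G4-ChIP partner had a median fold of 5.16 (4.91 to 5.58) and a median length of 991 bp (850 to 1230). Of these, 55 were in G4 DNA-IPdenat (93.2%, 83.5 to 98.1) and 56 in all 4 MinION AbC lists (94.9%, 85.9 to 98.9). The whole G4 DNA-IPnat list had nearly the same shares, 208 of 226 (92.0%) and 221 of 226 (97.8%). The highest lay in ADAP1 and COX19 (chr7:906106-906614), at a native fold of 6.95 against 24.3 in G4 DNA-IPdenat and 5.95 to 7.34 in KDut, CTtr and KDtr. The next, in LINC01667 on chromosome 21 (9815559-9816957, fold 6.77), held a signature and was in all 7 other lists. Those at chr20:31157267-31158958 (6.55), chr17:21891990-21895425 (6.54) and chr21:8386199-8387647 (6.48) were each in G4 DNA-IPdenat, at folds of 14.3, 11.3 and 13.1, and in all 4 MinION AbC lists.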

How the data were processed

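The peak lists were deposited by the authors as MACS2 broad peaks on hg38. Per the labels and the methods, uniquely aligned reads (minimap2, versions not given) of G4-ChIP and G4 DNA-IPnat were called against matched inputs with the default bandwidth. The deposited fold is the enrichment that MACS2 gives for a peak. For the AbC lists and G4 DNA-IPdenat the methods name the option --nolambda, which uses a genome-wide background. Whether it was also set for G4-ChIP and G4 DNA-IPnat is not stated, so their fold may not correct for local input. The deposited -log10 p and -log10 q values and the deposited score were written by MACS2. The lists themselves give no read counts. Library depths stated by the study were not used, and no fold was rescaled by depth. Inputs and signal tracks were not analysed here.

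Overlaps, sequence counts and intervals were computed with Python 3.11.15, pandas 2.3.3, pysam 0.24.0 and scipy 1.17.1 on hg38 and GENCODE version 44, and were tested on simulated data (22 of 22 checks recovered). Peak positions are printed 1-based. A tandem repeat matches itself over more than 50% of bases 1 alpha-satellite unit on, or has over 10% of its bases in the pentamer.

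The members, gene lists and rules were chosen with earlier results of these data known. Regions named are the 5 with the highest fold of each class. Genes named are the 8 with most chromatin-only peaks on and off chromosome 13 (shorter gene first in ties) and up to 10 by fold with a start site within 1 kb. The 3 gene lists held 6 of 27 (neuronal), 0 of 12 (promoter quadruplex) and 16 of 323 (coding genes of chromosome 13) genes with a chromatin-only peak in the body. A few genes and 1 sequence that these rules select are not reported here. Grouping followed the labels. Alternatives were other overlap minima, stricter q, wider partners, repeats left out and other gene, window and loop definitions.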

Additional observations from a re-analysis of the deposited data

How the results depend on the processing

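Of 90 alternative values, 55 stayed within the interval of the reported value and 35 did not. The share of G4-ChIP peaks that overlap G4 DNA-IPnat (10.8%; 20.3% off chromosome 13) became 8.93% and 16.8% at 50% of the peak's length, 7.63% and 14.3% at 70%, 6.46% and 12.1% with G4 DNA-IPnat peaks of -log10 q of at least 4 only, and 5.37% and 11.0% without tandem repeats. With G4-ChIP peaks of -log10 q of at least 4 only it was 45.9%, 58.8% off and 1.82% on chromosome 13. On those peaks, chromosome 13 held 41.2% of the chromatin-only peaks in place of 52.7%, and its medians were a fold of 5.38, 934.5 bp and 12.2 triplets per kb, with 3.70% in G4 DNA-IPdenat. Off chromosome 13 they were 5.52, 347 bp, 10.1 per kb, 33.8% in genes (35.2% on chromosome 13) and 42.9% in G4 DNA-IPdenat. Without peaks at the lowest fold, chosen after seeing the data, the shares were 16.4%, 31.2% and, of chromatin-only peaks on chromosome 13, 57.1%.

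Protein-coding genes alone gave 14.9% and 38.1% in genes. The central 1 kb gave 12.0 triplets per kb on chromosome 13 and signatures in 3.22% and 3.26%, and loops of up to 12 bases gave 14.3% on chromosome 13. Overlap with G4 DNA-IPdenat off chromosome 13 became 24.8% at 70% overlap and 15.1% without tandem repeats. The share of G4 DNA-IPnat peaks that overlap G4-ChIP (73.9%) became 50% at 70% of the peak's length, 55.8% with stricter G4-ChIP peaks and 88.2% with stricter G4 DNA-IPnat peaks. The cause of these moves was not tested. No paired analysis was possible because each method is 1 pooled library, with no shared replicate numbers and no test.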

Other observations

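A nuclear copy of mitochondrial genes on chromosome 1 (chr1:629444-634199, over MTND2P28, MTCO1P12, MTCO2P12, MTATP8P1 and MTATP6P1) was chromatin-only with a fold of 5.62. It had a fold of 6.63 in G4 DNA-IPdenat and of 5.53 in CTut, 12.5 in CTtr, 19.7 in KDtr, 20.3 in KDut, 22.3 in CTnuc and 46.0 in KDnuc, and no peak in G4 DNA-IPnat. Such copies can share reads with the mitochondrial genome, so the values are uncertain.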
